A study of Mus musculus with 18 samples.

Results

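The proteasome genes of mouse bone marrow macrophages were followed over an inflammatory stimulus and a pair of treatments with apoptotic bodies. They were taken as every gene symbol of the count table that starts with Psma, Psmb, Psmc, Psmd, Psme, Psmf or Psmg and a digit, which gave 51 of 16909 symbols. Of these, 14 were constitutive subunits of the core (7 alpha and 7 beta), 5 were the inducible subunits and activators (Psmb8, Psmb9, Psmb10, Psme1 and Psme2), and 17 were subunits of the regulatory particle (6 ATPases and 11 others). A further 7 were assembly chaperones, 3 were the activators Psme3 and Psme4 and the inhibitor Psmf1, 2 were the core subunits Psma8 and Psmb11 of testis and thymus, and 3 matched the symbols without being placed as subunits (Psme2b, Psme3ip1 and Psmc3ip). Poly(A) RNA was sequenced in 18 libraries. UVABs (n = 5) and STSABs (n = 5) were macrophages given apoptotic bodies of hucMSC, induced by UV and by STS (staurosporine). The design text calls both anti-inflammatory treatments. LPS (n = 5) was its positive control for inflammation, a bacterial cell wall component, and Con (n = 3) was the mock group. The labels state no strain, sex, age, dose or time, nor whether the macrophages of UVABs and STSABs also received LPS. Whether RNA of the added bodies entered the counts of UVABs and STSABs was not tested. Nothing states that replicates came from separate cultures or animals, so p-values measure only the spread between these libraries.

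The proteasome degrades proteins that carry ubiquitin chains. Its core is a barrel of stacked rings of alpha and beta subunits, in which Psmb5, Psmb6 and Psmb7 carry the cutting sites, and the regulatory particle caps the barrel, binds ubiquitin, unfolds the substrate and threads it in. Interferon and other inflammatory signals are known to exchange the 3 cutting subunits for Psmb8, Psmb9 and Psmb10, which gives the immunoproteasome, and to raise the cap formed by Psme1 and Psme2, and both are known for supplying peptides to MHC class I.

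Promoter sequence before the annotated start was read for the 5 inducible genes. It was also read for constitutive cutting subunits (Psmb5 and Psmb6) and for Psma6, which departed from its class. Of the inducible genes, Psmb10 and Psme2 are shown, those with the largest rise in LPS. Psmb8 and Psmb9 had no stretch free of annotated exons, and that of Psme1 (116 bases) held no match to the motifs below. The runs come from RefSeq (GRCm38.p6), are written 5′ to 3′ on the strand of the gene, and avoid annotated exons. Positions are counted back from the start, with -1 next to it. Psmb10 is shown for chr8:105938445-105938594, minus strand (-202 to -53). Psme2 is shown for chr14:55591102-55591251, minus strand (-150 to -1). Psmb5 is shown for chr14:54618023-54618172, minus strand (-177 to -28). Psmb6 is shown for chr11:70525207-70525356, plus strand (-150 to -1), and the second start of Psma6 for chr12:55398625-55398774, plus strand (-200 to -51). Capitals mark a match to the antioxidant response element TGACNNNGC in Psmb5 and Psmb6 and to the kB motif in Psma6. Of the 2 starts of Psma6 only the second, shown here, had a kB match.
Psmb10: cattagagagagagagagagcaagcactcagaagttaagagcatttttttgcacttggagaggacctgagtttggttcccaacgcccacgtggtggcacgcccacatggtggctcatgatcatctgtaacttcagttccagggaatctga
Psme2: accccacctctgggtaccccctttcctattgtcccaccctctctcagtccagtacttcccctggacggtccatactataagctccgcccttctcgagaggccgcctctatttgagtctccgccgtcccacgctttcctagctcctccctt
Psmb5: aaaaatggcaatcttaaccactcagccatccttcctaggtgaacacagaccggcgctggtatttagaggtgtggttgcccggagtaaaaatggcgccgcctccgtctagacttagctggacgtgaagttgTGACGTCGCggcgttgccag
Psmb6: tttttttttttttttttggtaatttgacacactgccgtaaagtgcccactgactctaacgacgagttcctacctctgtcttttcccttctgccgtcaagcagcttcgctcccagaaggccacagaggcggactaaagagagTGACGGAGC
Psma6: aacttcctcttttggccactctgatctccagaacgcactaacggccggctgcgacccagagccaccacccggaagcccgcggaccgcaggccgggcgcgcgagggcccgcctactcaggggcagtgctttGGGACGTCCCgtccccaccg
In all, 4 motifs were looked for on both strands in the 250 bases before each start, for the 43 of 51 genes matched in the table. The antioxidant response element was found in 5 of 43 genes (11.6%), against 11.5% of 27025 genes with a promoter in the table. The kB motif was found in 6 of 43 (14.0%), against 8.23%, and these were Psma6, Psma7, Psmd11, Psmd12, Psmd13 and Psme4. The interferon-stimulated response element (GAAA, any 2 bases, GAAA) was found in 3 of 43 (6.98%), against 3.46%, and none of the 5 inducible genes was among them. The STAT element TTCNNNGAA was found in 2 of 43 (4.65%), against 8.13%, one of them Psmb8. These are matches of letters and say nothing of binding.

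Libraries held 17588357 to 18675283 counts. The macrophage markers Adgre1, Csf1r, Cd68, Itgam, Fcgr1, Mertk, Lyz2 and Cd14 were all detected, with a summed level of 10400 to 11900 CPM (read counts scaled by each library's TMM-adjusted total) in UVABs, 9730 to 10900 in STSABs, 12300 to 13700 in LPS and 10600 to 11500 in Con. These markers did not move together, with log2 fold changes from -1.633 to 2.275 in LPS against Con. Against LPS they ranged from -0.59 to 0.689 in UVABs and from -0.584 to 0.608 in STSABs. Markers of B cells, T and NK cells, and stroma summed to at most 6.26 CPM in any library. Those of neutrophils and dendritic cells summed to more and are given below. Replicate 2 of STSABs and of UVABs stood apart in several of the genes below, among them Psma6, Psmb5 and Psmf1, whose differences from LPS are given with and without the pair. The pair also stood apart over the genes tested as a whole. Chi-square over degrees of freedom was 22.7 to 32.3 between replicate 2 and the other UVABs libraries, and at most 7.67 among those others. In STSABs it was 19.1 to 29.9, against at most 8.74. Both libraries were kept in the main fit. In bulk RNA, fewer cells of a type and less RNA per cell cannot be told apart. TMM factors were 1.51 to 1.52 in Con and 0.895 to 0.939 in the other groups, so levels set against Con lean on the scaling.

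In LPS against Con, the inducible genes and most of the core rose together. Of the 50 genes tested, 42 were higher in LPS and 4 were lower (edgeR's quasi-likelihood test, Benjamini-Hochberg adjusted p under 0.05). The same test gives every adjusted p below, and log2 fold changes are given ± SE. Over all 12465 genes tested, 83% were called, 40% higher and 43% lower. The median log2 fold change of the 50 was 0.687, against -0.033 for all genes. It was 2.341 for the 5 inducible genes, 1.038 for the constitutive core and 0.59 for the regulatory particle. Scaling by library totals alone moved the all-gene median to -0.777 and the proteasome calls to 18 higher and 22 lower. Set against the all-gene median, 46 of 50 lay above it, among them all 5 inducible, all 14 core and all 17 regulatory particle genes. Scaling moves all genes alike and so cannot change that count.

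All 5 inducible genes were higher in LPS than in Con, and their direction and call held under every scaling tried. Psmb10 had 169, 178, 177, 169 and 169 CPM in UVABs, 174, 166, 169.9, 164 and 160.0 in STSABs, 299, 310.0, 315, 299.9 and 296 in LPS, against 40.4, 38.5 and 39.9 in Con. Psmb10 is the inducible subunit that takes the place of Psmb7. All LPS libraries exceeded those of UVABs and STSABs (together the AB groups), which in turn exceeded Con, without overlap. The log2 fold change was 2.94 ± 0.052 (adjusted p = 1.87e-22) in LPS against Con, -0.82 ± 0.039 (adjusted p = 7.36e-13) in UVABs against LPS and -0.87 ± 0.039 (adjusted p = 2.79e-13) in STSABs against LPS.

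Psmb9 had 301, 314, 313, 259 and 283 CPM in UVABs, 302, 324, 297, 272 and 282 in STSABs, 242, 246, 259.5, 268 and 240.2 in LPS, against 49.4, 48.2 and 51.2 in Con. Psmb9, which takes the place of Psmb6, was lowest in Con and highest in the AB groups. STSABs did not overlap LPS, whereas replicate 4 of UVABs lay within the range of LPS. Log2 fold changes were 2.34 ± 0.073 (adjusted p = 3.79e-18) in LPS against Con, 0.23 ± 0.057 (adjusted p = 0.00177) in UVABs against LPS and 0.23 ± 0.057 (adjusted p = 0.00128) in STSABs against LPS. Psmb9 and Psmb10 thus had calls of opposite sign in both AB comparisons with LPS, which share the LPS libraries.

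Psmb8 had 496, 504, 512, 438 and 458 CPM in UVABs, 491, 492, 488, 475 and 469 in STSABs, 467, 458, 489, 462 and 459 in LPS, against 197, 176 and 190.2 in Con. Psmb8, the inducible counterpart of Psmb5, was lowest in Con, and the other 3 groups overlapped. It rose by 1.31 ± 0.057 (adjusted p = 1.85e-15) on the log2 scale in LPS against Con. Its difference from LPS was 0.045 ± 0.047 (adjusted p = 0.433) in UVABs and 0.049 ± 0.047 (adjusted p = 0.396) in STSABs, neither past the threshold.

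Psme1 had 375, 356, 389.8, 344 and 351 CPM in UVABs, 399.9, 343, 376, 336 and 341 in STSABs, 395, 373, 386, 410.1 and 360.5 in LPS, against 113, 99.4 and 102 in Con. Psme1 forms the PA28 cap with Psme2 and is known to open the barrel without ubiquitin. Con lay below every other library, and LPS overlapped both AB groups. The log2 fold change in LPS against Con was 1.88 ± 0.070 (adjusted p = 1.05e-16). Against LPS it was -0.084 ± 0.056 (adjusted p = 0.208) in UVABs and -0.099 ± 0.056 (adjusted p = 0.136) in STSABs. Without replicate 1 of STSABs, the STSABs difference was -0.14 and passed (adjusted p = 0.0363, edgeR).

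Psme2 had 609, 603, 633, 579 and 589.8 CPM in UVABs, 625, 571, 596, 579 and 603 in STSABs, 735, 722, 729, 711 and 682 in LPS, against 91.0, 88.4 and 103 in Con. Psme2, the other subunit of that cap, was highest in LPS, lower in both AB groups without overlap, and lowest in Con. These levels gave log2 fold changes of 2.93 ± 0.061 (adjusted p = 3.18e-21) in LPS against Con, -0.25 ± 0.046 (adjusted p = 9.42e-05) in UVABs against LPS and -0.27 ± 0.046 (adjusted p = 4.03e-05) in STSABs against LPS. Its estimated counts were not whole numbers in any of the 18 libraries, and those of Psme2b, a gene of similar symbol, in 17, so reads may be divided between them and both levels are uncertain. Psme2b moved by 2.96 ± 0.16 (adjusted p = 1.54e-13) in LPS against Con.

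**Figure D1:**
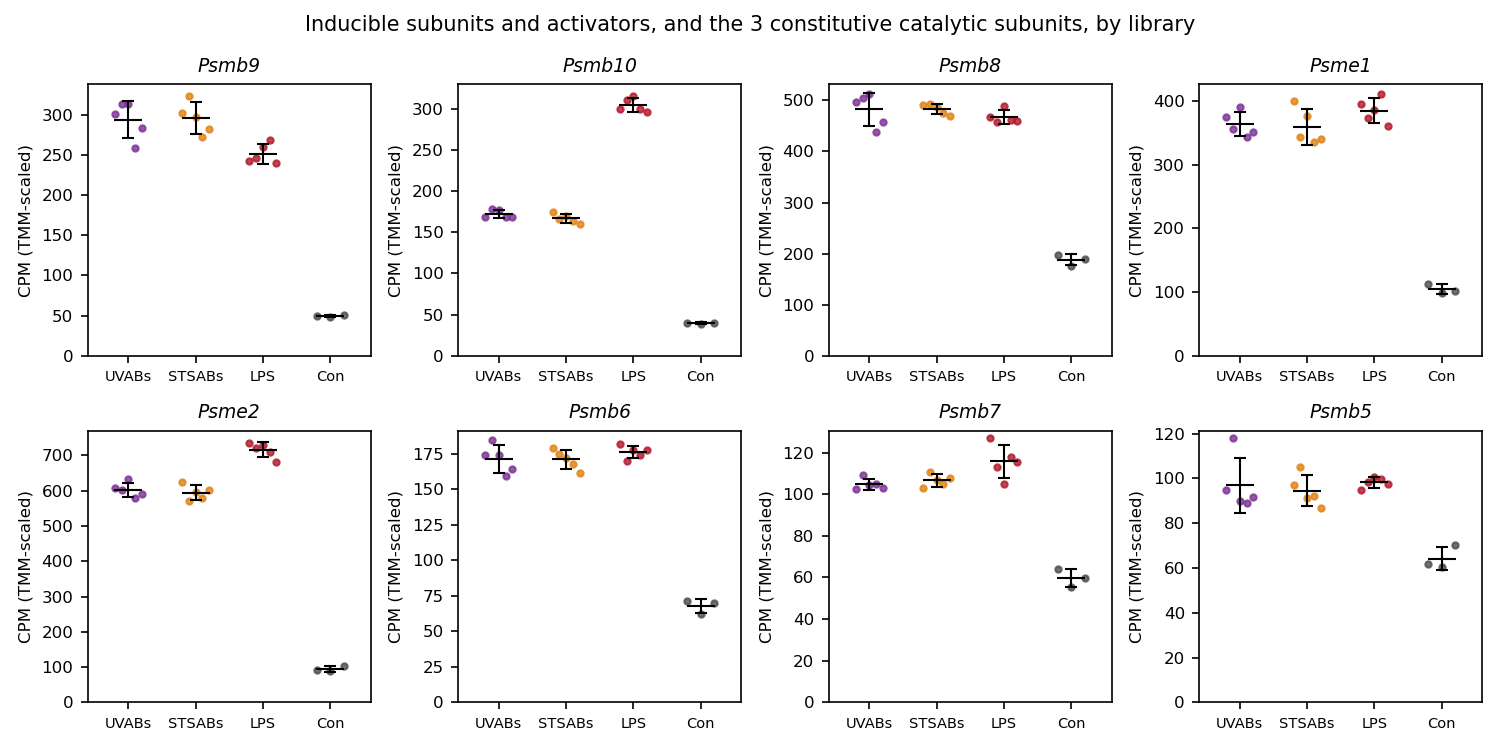
Level of the 5 inducible genes and the 3 constitutive cutting subunits in each library, as CPM on TMM-scaled library sizes. Points are libraries of UVABs, STSABs, LPS (n = 5 each) and Con (n = 3), and bars are mean ± SD. Psmb10 and Psme2 were highest in LPS, Psmb9 in the AB groups, and all 8 genes were lowest in Con.

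Each constitutive cutting subunit had a smaller log2 fold change in LPS against Con than the subunit that replaces it. Psmb6 had 174, 185, 174, 159.5 and 164 CPM in UVABs, 179, 175, 172, 168 and 162 in STSABs, 182, 169.9, 178, 174 and 178 in LPS, against 71.1, 62.2 and 69.8 in Con. Psmb7 had 103, 109, 104, 105 and 103 CPM in UVABs, 103, 111, 107, 105 and 108 in STSABs, 127, 113, 105, 118 and 116 in LPS, against 64.0, 55.6 and 59.6 in Con. Psmb5 had 94.9, 118, 90.1, 89.0 and 91.9 CPM in UVABs, 97.3, 105, 91.4, 92.0 and 86.9 in STSABs, 94.6, 98.5, 100.4, 99.9 and 97.6 in LPS, against 62.0, 60.5 and 70.1 in Con. Con lay below all other libraries for each of the 3, and the AB groups overlapped LPS for each. The log2 fold change in LPS against Con was 1.38 ± 0.059 (adjusted p = 1.12e-15) for Psmb6, 0.95 ± 0.059 (adjusted p = 1.01e-12) for Psmb7 and 0.61 ± 0.081 (adjusted p = 3.93e-07) for Psmb5. With library totals alone that of Psmb5 was -0.13. Against LPS, Psmb5 differed by -0.021 ± 0.069 (adjusted p = 0.822) in UVABs and -0.054 ± 0.069 (adjusted p = 0.523) in STSABs, and Psmb6 by -0.042 ± 0.048 (adjusted p = 0.475) and -0.044 ± 0.048 (adjusted p = 0.454) in the same comparisons. Replicate 2 held the highest Psmb5 of both AB groups, and without that pair Psmb5 differed from LPS by -0.10 (adjusted p = 0.0642) in UVABs and -0.0945 (adjusted p = 0.0869) in STSABs. Psmb7 passed the threshold at -0.14 ± 0.049 (adjusted p = 0.0159) in UVABs and -0.12 ± 0.049 (adjusted p = 0.0463) in STSABs. That call was lost without replicate 1 of LPS, at -0.11 in UVABs (adjusted p = 0.0565, edgeR) and -0.083 in STSABs (adjusted p = 0.152), and in STSABs also without most other single libraries and under several scalings, filters and the replicate block (adjusted p = 0.0505).

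Ratios of counts within a library do not move with the scaling. They are not corrected for gene length, so only their change between groups is given, and no test was made. The ratio of Psmb10 to Psmb7 averaged 1.65 ± 0.034 in UVABs, 1.57 ± 0.084 in STSABs, 2.64 ± 0.24 in LPS and 0.664 ± 0.032 in Con (SD). LPS held the highest ratios and Con the lowest, without overlap between LPS and the AB groups. The ratio of Psmb9 to Psmb6 averaged 1.71 ± 0.064 in UVABs, 1.73 ± 0.085 in STSABs, 1.43 ± 0.085 in LPS and 0.734 ± 0.041 in Con (SD). Here the AB groups lay above LPS without overlap, and Con was again lowest. The ratio of Psmb8 to Psmb5 averaged 5.02 ± 0.52 in UVABs, 5.12 ± 0.29 in STSABs, 4.76 ± 0.14 in LPS and 2.93 ± 0.23 in Con (SD), and the AB groups overlapped LPS. All 3 mean ratios were higher in LPS than in Con. In the AB groups, that of Psmb10 was lower than in LPS and that of Psmb9 was higher.

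The ratio of Psmb10 to Psmb9, looked at after their values were seen, averaged 0.589 ± 0.037 in UVABs, 0.566 ± 0.033 in STSABs, 1.21 ± 0.054 in LPS and 0.799 ± 0.019 in Con (SD). It was highest in LPS and lowest in the AB groups, with no overlap between LPS, Con and the AB groups. For the caps, the ratio of Psme1 to Psme3 averaged 5.02 ± 0.33 in UVABs, 5.06 ± 0.5 in STSABs, 3.7 ± 0.21 in LPS and 1.22 ± 0.085 in Con (SD). The ratio of Psme2 to Psme3 averaged 8.34 ± 0.42 in UVABs, 8.37 ± 0.46 in STSABs, 6.88 ± 0.26 in LPS and 1.1 ± 0.092 in Con (SD). Both were higher in the AB groups than in LPS, without overlap. Against LPS, however, Psme1 did not pass and Psme2 was lower in both AB groups, and the divisor Psme3 was lower as well.

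**Figure D2:**
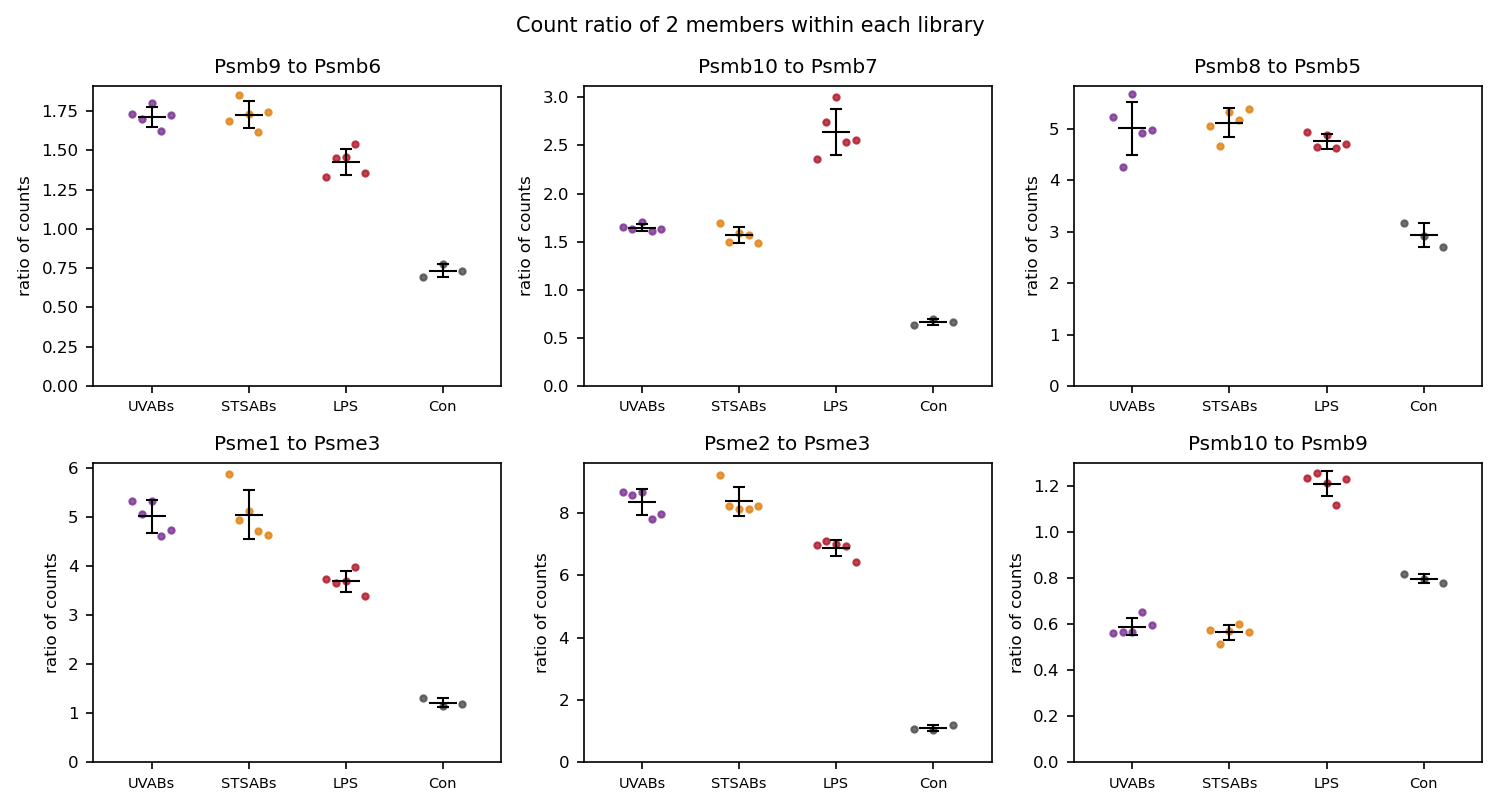
Ratio of the counts of 2 genes within each library, not corrected for gene length, in UVABs, STSABs, LPS (n = 5 each) and Con (n = 3), with mean ± SD. Psmb10 to Psmb7 peaked in LPS at a mean of 2.64, whereas Psmb9 to Psmb6 was 1.71 in UVABs and 1.73 in STSABs, against 1.43 in LPS.

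In the constitutive core, cutting subunits included, 6 of 7 alpha subunits and all 7 beta subunits rose in LPS against Con. Over all genes 40% were higher. The median log2 fold change was 1.56 for alpha and 0.775 for beta. With library totals alone 5 alpha and 3 beta subunits were higher, and 2 of each were lower. Psma6 had 548, 463, 549, 529 and 531 CPM in UVABs, 549, 453, 542, 544 and 545 in STSABs, 471, 452, 459, 454 and 440.1 in LPS, against 135, 117 and 119.6 in Con. Psma6 is a subunit of the outer ring. Con lay far below the other groups. In the AB groups 4 of 5 libraries exceeded all LPS libraries, and replicate 2 of each lay within the range of LPS. The log2 fold change was 1.88 ± 0.073 (adjusted p = 2.26e-16) in LPS against Con, 0.20 ± 0.058 (adjusted p = 0.00535) in UVABs against LPS and 0.21 ± 0.058 (adjusted p = 0.00404) in STSABs against LPS. Without replicate 2 of both AB groups the differences from LPS were 0.24 (adjusted p = 2.25e-05) in UVABs and 0.26 (adjusted p = 8.86e-06) in STSABs. Nfkbia, a gene beside Psma6 on the chromosome, encodes an inhibitor of NF-kB. It changed by 2.82 ± 0.064 (adjusted p = 1.13e-20) in LPS against Con, 0.36 ± 0.048 (adjusted p = 1.56e-06) in UVABs against LPS and 0.38 ± 0.048 (adjusted p = 9.07e-07) in STSABs against LPS. Prorp, on the other side of Psma6, changed by -0.83 ± 0.11 (adjusted p = 2.32e-07) in LPS against Con. It did not pass against LPS in either AB group.

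Psma5 had 189, 195, 188, 179 and 178 CPM in UVABs, 186, 175, 179, 192 and 177 in STSABs, 271, 229, 242, 230.1 and 237 in LPS, against 71.3, 68.3 and 66.6 in Con. Psma5, another subunit of the outer ring, was highest in LPS and did not overlap between LPS and the AB groups. It rose by 1.81 ± 0.061 (adjusted p = 1.4e-17) in LPS against Con, and differed by -0.38 ± 0.049 (adjusted p = 9.08e-07) in UVABs and -0.41 ± 0.049 (adjusted p = 3.21e-07) in STSABs against LPS. Psma4 rose by 1.62 ± 0.070 (adjusted p = 1.36e-15) in LPS and fell by 0.28 ± 0.057 (adjusted p = 0.00022) in UVABs and 0.25 ± 0.057 (adjusted p = 0.000745) in STSABs against LPS. Psma3 fell by 0.46 ± 0.048 (adjusted p = 4.24e-08) in UVABs and 0.44 ± 0.048 (adjusted p = 7.41e-08) in STSABs. Psma1 did not pass in LPS against Con with TMM scaling, at 0.047 ± 0.064 (adjusted p = 0.5), and averaged 93.4 CPM in LPS and 90.5 CPM in Con. It passed as lower in LPS with upper-quartile scaling, at -0.23 (adjusted p = 0.0021), and with library totals alone, at -0.70 (adjusted p = 5.4e-10). Psma8 reached at most 1.63 CPM in any library and Psmb11 at most 1 count, so Psmb11 was not tested.

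Of the 17 genes of the regulatory particle, 16 rose in LPS with TMM scaling, 5 of 6 ATPases and all 11 others. Over all genes 40% were higher and 43% lower in that comparison. With library totals alone 2 of the 17 were higher and 10 lower. In each AB group against Con, library totals alone gave 1 of the 17 higher and 15 lower. Psmd11 had 110.4, 113, 106, 104 and 104 CPM in UVABs, 114, 109, 108, 111 and 107 in STSABs, 133, 123, 122, 120.0 and 123 in LPS, against 48.3, 50.1 and 47.1 in Con. Psmd11 is a scaffold subunit of the lid. All LPS libraries exceeded the AB groups, and Con was lowest. It changed by 1.35 ± 0.051 (adjusted p = 1.24e-16) in LPS against Con. Psmd7 had 56.2, 54.3, 55.9, 53.3 and 54.6 CPM in UVABs, 56.5, 51.8, 56.8, 53.3 and 53.0 in STSABs, 88.8, 85.1, 85.7, 90.3 and 87.3 in LPS, against 42.6, 41.2 and 46.5 in Con. Psmd7 is the partner of the deubiquitinase Psmd14 in the lid. With TMM scaling it was lowest in Con, and the AB groups lay between Con and LPS without overlap. Its log2 fold change was 1.01 ± 0.052 (adjusted p = 3.72e-14) in LPS against Con, -0.67 ± 0.044 (adjusted p = 5.87e-11) in UVABs against LPS and -0.69 ± 0.044 (adjusted p = 4.1e-11) in STSABs against LPS. Psmc5, an ATPase of the base ring, rose by 0.78 ± 0.060 (adjusted p = 5.23e-11) in LPS, and fell by 0.53 ± 0.051 (adjusted p = 1.79e-08) in UVABs and 0.47 ± 0.051 (adjusted p = 1.07e-07) in STSABs. For Psmc5 in LPS, library totals alone gave 0.031 (adjusted p = 0.615). Psmd6, a lid subunit, fell by 0.49 ± 0.061 (adjusted p = 6.2e-07) and 0.46 ± 0.061 (adjusted p = 1.65e-06) in the same comparisons.

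Psmd8 had 319, 305, 329.7, 320.4 and 318 CPM in UVABs, 355, 314, 324, 312 and 311 in STSABs, 297, 262, 272, 262 and 265 in LPS, against 196, 187 and 178 in Con. Psmd8, a further lid subunit, was highest in the AB groups, and their libraries exceeded all LPS libraries, as the LPS libraries did Con. Psmd8 changed by 0.54 ± 0.057 (adjusted p = 1.09e-08) in LPS against Con, 0.23 ± 0.048 (adjusted p = 0.000344) in UVABs against LPS and 0.25 ± 0.048 (adjusted p = 0.000133) in STSABs against LPS. With library totals alone that of LPS against Con was -0.21. Psmd4 had 104, 124, 116, 100.2 and 103 CPM in UVABs, 113, 116, 109.6, 97.2 and 101 in STSABs, 109.7, 109, 118, 113 and 107 in LPS, against 93.1, 89.9 and 86.8 in Con. Psmd4 is a receptor for ubiquitin chains. LPS exceeded Con without overlap, and the AB groups overlapped LPS. It rose by 0.31 ± 0.070 (adjusted p = 0.000348) in LPS against Con, where library totals alone gave -0.44. Against LPS it differed by -0.023 ± 0.060 (adjusted p = 0.763) in UVABs and -0.049 ± 0.060 (adjusted p = 0.501) in STSABs.

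In UVABs against LPS, 3 proteasome genes were higher and 27 were lower of 50 tested, and over all genes 57.4% were called, 28.6% higher and 28.8% lower. In STSABs against LPS, 3 were higher and 30 lower, and over all genes 57.4% were called, 28.4% higher and 29% lower. The higher ones were Psma6, Psmb9 and Psmd8 in each. The median log2 fold change was -0.196 in UVABs, against 0 for all genes, and -0.183 in STSABs, against -0.006 for all genes. All 6 ATPases passed as lower in each comparison. In UVABs the call of Psmc3, at -0.13 ± 0.050 (adjusted p = 0.0286), was lost without any one of replicates 1 and 3 of LPS and 4 and 5 of UVABs (-0.11 to -0.12, edgeR). Upper-quartile scaling (adjusted p = 0.0514, edgeR) and library totals alone (adjusted p = 0.113) also ended it. In STSABs the call of Psmc6, at -0.17 ± 0.065 (adjusted p = 0.0348), was lost without any one of replicates 1 and 4 of LPS and 1, 2 and 3 of STSABs (-0.11 to -0.17, edgeR). Library totals alone (adjusted p = 0.136, edgeR) and a fit of only the groups compared (adjusted p = 0.0806) ended that call too. Of the 11 other regulatory subunits, 8 were lower and 1 was higher in each. Of the 7 constitutive beta subunits, 1 (Psmb7) passed, a call that depends on the libraries and settings as above, and of the 7 alpha subunits 4 were lower and 1 was higher. Markers of other myeloid cells were higher in the AB groups than in LPS. All 6 neutrophil genes passed in each, and summed to 2190 to 2710 CPM in UVABs and 2140 to 3190 in STSABs, against 1220 to 1660 in LPS and 816 to 1010 in Con. In LPS against Con these 6 did not move together, with 4 higher, 1 lower and 1 not called (log2 fold changes -0.685 to 1.018). Of 4 dendritic cell genes, 3 were tested and passed as higher in each, and the 4 summed to 2730 to 3390 CPM in UVABs and 2770 to 3360 in STSABs, against 2440 to 2740 in LPS. The part of either in these results was not tested.

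**Figure D3:**
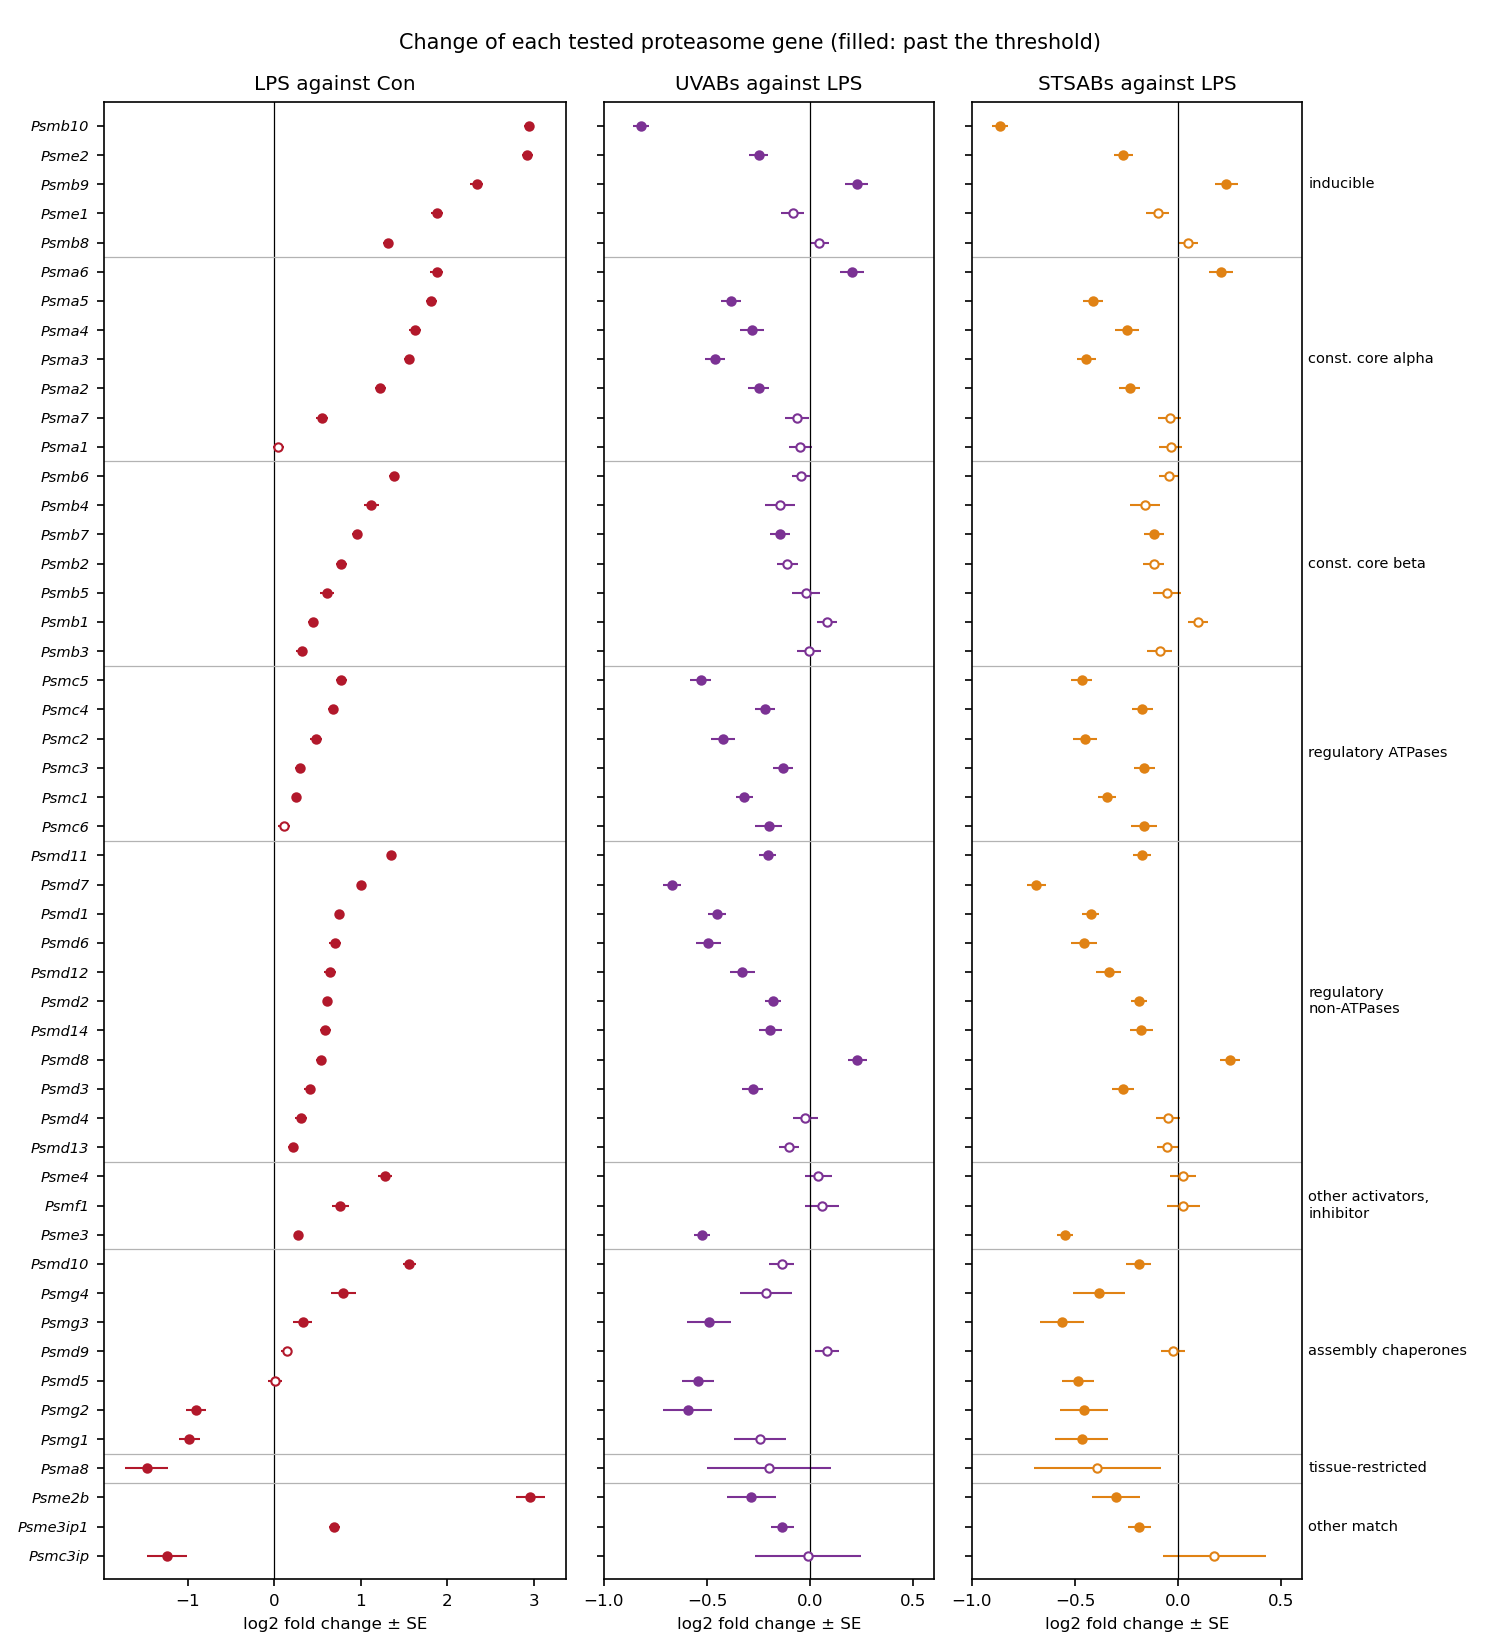
Log2 fold change ± SE of the 50 tested proteasome genes, by class, in LPS against Con, UVABs against LPS and STSABs against LPS (edgeR, TMM scaling; the horizontal axis of the first panel spans more). Filled points passed an adjusted p of 0.05. Psmb10 lies farthest to the left in both AB panels, and Psma6, Psmb9 and Psmd8 are the filled points right of 0 there.

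Of the other activators, Psme3 forms a nuclear cap of its own. Psme3 had 70.2, 70.2, 73.0, 74.3 and 74.0 CPM in UVABs, 68.0, 69.5, 73.4, 71.3 and 73.5 in STSABs, 106, 102, 104, 103 and 106 in LPS, against 85.8, 85.9 and 85.7 in Con. LPS was highest, and the AB groups lay below Con as well as below LPS, without overlap. Psme3 changed by 0.28 ± 0.044 (adjusted p = 4.89e-06) in LPS against Con, -0.53 ± 0.039 (adjusted p = 3.09e-10) in UVABs against LPS and -0.55 ± 0.039 (adjusted p = 1.59e-10) in STSABs against LPS. With library totals alone that of LPS against Con was -0.47. Psme4 had 143, 138, 137, 158 and 149.6 CPM in UVABs, 142, 125, 132, 157 and 162 in STSABs, 146, 137, 133, 144 and 146 in LPS, against 54.7, 62.0 and 57.8 in Con. Psme4 encodes the cap PA200. It rose by 1.28 ± 0.078 (adjusted p = 8.61e-13) in LPS against Con, and the AB groups overlapped LPS. Psmf1 had 39.8, 54.1, 42.3, 40.6 and 44.0 CPM in UVABs, 41.9, 52.3, 41.3, 38.0 and 42.3 in STSABs, 44.6, 42.7, 41.2, 42.3 and 41.2 in LPS, against 24.8, 26.4 and 23.7 in Con. Psmf1, an inhibitor of the core, rose by 0.76 ± 0.095 (adjusted p = 1.61e-07) in LPS against Con, and replicate 2 of both AB groups held the highest values. Library totals alone gave 0.018 for the rise of Psmf1 (adjusted p = 0.852). Against LPS, Psme4 differed by 0.041 ± 0.064 (adjusted p = 0.614) in UVABs and 0.024 ± 0.064 (adjusted p = 0.763) in STSABs, and Psmf1 by 0.059 ± 0.081 (adjusted p = 0.56) and 0.026 ± 0.081 (adjusted p = 0.8) in the same comparisons. Without replicate 2 of both AB groups Psmf1 differed by -0.025 (adjusted p = 0.698) in UVABs and -0.051 (adjusted p = 0.405) in STSABs.

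Of the 7 chaperones that assemble the proteasome, 3 were higher in LPS than in Con, 2 were lower and 2 did not pass, a share no greater than the 83% called over all genes. With library totals alone 1 was higher and 5 were lower. Psmg1 had 3.82, 4.97, 4.16, 3.26 and 4.29 CPM in UVABs, 2.78, 3.77, 3.95, 3.27 and 3.76 in STSABs, 5.63, 5.39, 4.96, 4.44 and 3.81 in LPS, against 9.96, 9.24 and 9.54 in Con. Psmg2 had 3.40, 3.89, 3.50, 3.09 and 2.70 CPM in UVABs, 3.88, 3.40, 3.71, 3.98 and 3.23 in STSABs, 5.81, 3.999, 5.64, 5.04 and 4.54 in LPS, against 10.2, 8.77 and 9.18 in Con. Psmg1 and Psmg2 together guide the ring of alpha subunits. Con was above every other library for both, and the AB groups overlapped LPS for Psmg1 but not for Psmg2. The log2 fold change in LPS against Con was -0.98 ± 0.12 (adjusted p = 1.16e-07) for Psmg1 and -0.90 ± 0.11 (adjusted p = 1.35e-07) for Psmg2. Psmd10, which helps to assemble the base, rose by 1.56 ± 0.074 (adjusted p = 7.88e-15). Psmg4 rose by 0.80 ± 0.14 (adjusted p = 2.78e-05), where library totals alone gave 0.054 (adjusted p = 0.719). Psmg3, its partner, rose by 0.33 ± 0.11 (adjusted p = 0.0119), a call lost without replicate 2 of Con (0.23, adjusted p = 0.0993, edgeR), and library totals alone gave -0.42.

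Against LPS, 3 of 7 chaperones were lower in UVABs (28.8% over all genes) and 6 of 7 in STSABs (29% over all genes). Psmg2 fell by 0.59 ± 0.12 (adjusted p = 0.000218) in UVABs and 0.46 ± 0.12 (adjusted p = 0.00212) in STSABs. Psmd5, a chaperone of the base, fell by 0.54 ± 0.076 (adjusted p = 2.88e-06) and 0.49 ± 0.075 (adjusted p = 1.15e-05), and Psmg3 by 0.49 ± 0.11 (adjusted p = 0.000498) and 0.56 ± 0.11 (adjusted p = 0.000128), in the same comparisons. Without replicate 2 of both AB groups, 6 were lower in each. No chaperone differed between UVABs and STSABs past the threshold.

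**Figure D4:**
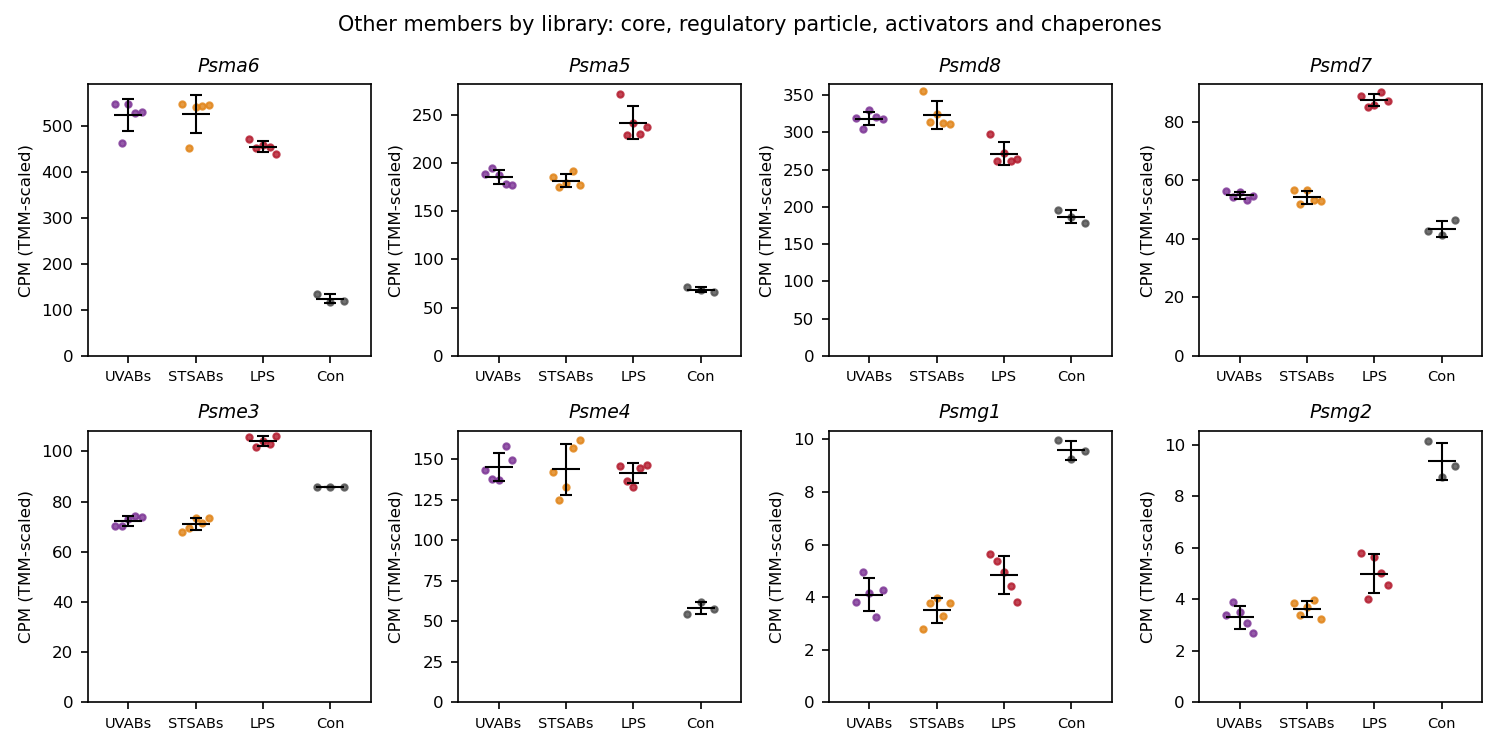
Level of 8 further proteasome genes in each library, as CPM on TMM-scaled library sizes, with mean ± SD, in UVABs, STSABs, LPS (n = 5 each) and Con (n = 3). Replicate 2 of each AB group is the low point of Psma6, Psme3 is lowest in the AB groups, and Psmg1 and Psmg2 are highest in Con.

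Shares of all counts describe the classes without scaling factors, and no test was made. Inducible genes took 0.177 ± 0.0077% in UVABs, 0.177 ± 0.005% in STSABs, 0.191 ± 0.005% in LPS and 0.0719 ± 0.0031% in Con (SD). The constitutive core took 0.2 ± 0.0027% in UVABs, 0.201 ± 0.0056% in STSABs, 0.207 ± 0.0081% in LPS and 0.155 ± 0.0058% in Con (SD). The regulatory particle took 0.154 ± 0.0025% in UVABs, 0.156 ± 0.0033% in STSABs, 0.17 ± 0.0043% in LPS and 0.193 ± 0.008% in Con (SD). Con was lowest for the inducible genes and the core and highest for the regulatory particle, in each case without overlap. The chaperones took 0.00989 ± 0.00054% in UVABs, 0.00962 ± 0.00026% in STSABs, 0.0113 ± 0.0002% in LPS and 0.014 ± 0.00032% in Con (SD), and were highest in Con.

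**Figure D5:**
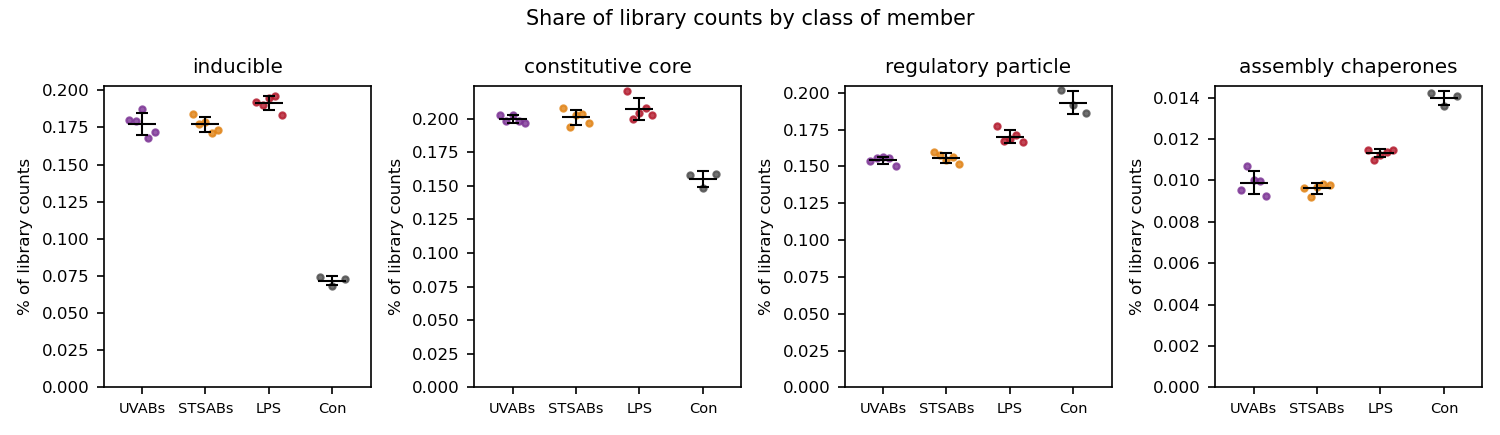
Share of each library's counts, in percent, taken by 4 classes of proteasome gene in UVABs, STSABs, LPS (n = 5 each) and Con (n = 3), with mean ± SD. Inducible genes took 0.191% in LPS, against 0.0719% in Con, while the regulatory particle took 0.17% in LPS, against 0.193% in Con.

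Between UVABs and STSABs, no proteasome gene passed the threshold. Of 50 tested, 0 passed by edgeR and 0 by DESeq2, and 0 had an unadjusted p under 0.05 (edgeR). Over all genes 0% were called, with 198 of 12465 at an unadjusted p under 0.05 (edgeR). That share is itself below 0.05, so the p-values of this unpaired fit ran high. The absence of calls thus does not show that the groups are alike. The log2 differences ranged from -0.187 to 0.225, with a median standard error of 0.0562. For the inducible genes they ranged from -0.008 to 0.047. With the replicate number as a block in the fit of these groups alone, 0 proteasome genes passed, and 0 of all genes.

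Against Con, 37 proteasome genes were higher and 6 lower in UVABs, and 38 were higher and 6 lower in STSABs. Library totals alone turned this to 16 higher and 28 lower in UVABs and 17 higher and 28 lower in STSABs, and upper-quartile scaling gave 13 lower in each. Over all genes 82.6% were called in UVABs, 40.2% higher and 42.4% lower, and 82.6% in STSABs, 40% higher and 42.6% lower. These comparisons and that of LPS share the Con libraries. Psmb10 was higher by 2.12 ± 0.050 (adjusted p = 2.66e-20) in UVABs and 2.07 ± 0.050 (adjusted p = 3.97e-20) in STSABs, and Psmb9 by 2.57 ± 0.074 (adjusted p = 9.61e-19) and 2.57 ± 0.074 (adjusted p = 9.2e-19). Psmb8 was higher by 1.36 ± 0.058 (adjusted p = 1.11e-15) in UVABs and 1.36 ± 0.058 (adjusted p = 1.08e-15) in STSABs. For the caps, Psme1 was higher by 1.79 ± 0.070 (adjusted p = 2.45e-16) and 1.78 ± 0.070 (adjusted p = 2.83e-16), and Psme2 by 2.68 ± 0.060 (adjusted p = 1.28e-20) and 2.66 ± 0.060 (adjusted p = 1.42e-20), in the same order of groups. Leaving aside genes that stayed under 5 CPM in both groups, Psmg2 fell most in UVABs, by 1.499 ± 0.12 (adjusted p = 7.36e-11), and Psmg1 in STSABs, by 1.45 ± 0.12 (adjusted p = 3.72e-10).

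Genes that work with the proteasome were taken from lists by textbook role. Their counts stand beside a background in which 83% of all genes were called in LPS against Con (40% higher, 43% lower) and 57.4% in each AB group against LPS. Of 14 genes of MHC class I peptide supply, 14 were higher in LPS than in Con, with a median log2 fold change of 1.525, and with library totals alone 11 were higher and 1 lower. Nlrc5, an activator of MHC class I genes, rose by 3.83 ± 0.074 (adjusted p = 8.93e-22), and Tapbp, which loads peptides, by 3.07 ± 0.061 (adjusted p = 1.31e-21). Against LPS, 8 of the 14 were lower and 1 was higher in each AB group. Over all genes, 28.8% were lower in UVABs and 29% in STSABs, and 28.6% and 28.4% were higher. The median log2 fold change of the 14 was -0.171 in UVABs, against 0 for all genes, and -0.157 in STSABs, against -0.006. Erap1, which trims peptides, fell by 0.66 ± 0.097 (adjusted p = 5.9e-06) in UVABs and 0.66 ± 0.097 (adjusted p = 5.25e-06) in STSABs. Tap1, the peptide transporter subunit beside Psmb9 on the chromosome, rose by 2.81 ± 0.062 (adjusted p = 8.11e-21) in LPS against Con, and fell by 0.24 ± 0.047 (adjusted p = 0.000149) in UVABs and 0.24 ± 0.047 (adjusted p = 0.000142) in STSABs against LPS, where Psmb9 was higher. H2-DMb1, on the other side of Psmb9, changed by -0.27 ± 0.080 (adjusted p = 0.00386) in LPS against Con. It did not pass against LPS in either AB group. Dendritic cell markers (Flt3, Zbtb46, Ccr7 and Xcr1) summed to 2440 to 2740 CPM in LPS and 166 to 187 CPM in Con, nearly all of it Ccr7, which averaged 2492 CPM in LPS and 141.8 CPM in Con. Zbtb46 averaged 48.4 CPM in LPS and 30.6 CPM in Con and passed as higher, Flt3 averaged 1.10 CPM in LPS and 1.51 CPM in Con and did not pass, and Xcr1 was too low to be tested. Their part in the rise of the proteasome genes was not tested.

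Of 5 genes that control proteasome genes through the transcription factor Nrf1, 3 were higher and 2 lower in LPS against Con, a split near that of all genes. Nfe2l1, which encodes Nrf1, rose by 0.76 ± 0.055 (adjusted p = 1.71e-11) in LPS against Con, by 0.66 ± 0.046 (adjusted p = 1.85e-10) in UVABs against LPS and by 0.69 ± 0.046 (adjusted p = 8.28e-11) in STSABs against LPS. Library totals alone took the LPS difference to 0.018 (adjusted p = 0.742, edgeR). The enzymes that activate Nrf1 were lower in the AB groups: Ngly1, a deglycosylase, fell by 0.45 ± 0.071 (adjusted p = 1.36e-05) in UVABs and 0.46 ± 0.071 (adjusted p = 1.19e-05) in STSABs against LPS, and Ddi2, a protease, by 0.53 ± 0.083 (adjusted p = 1.29e-05) and 0.43 ± 0.082 (adjusted p = 0.000129). Vcp, an ATPase that extracts ubiquitinated proteins, rose by 1.004 ± 0.043 (adjusted p = 1.42e-15) in LPS against Con.

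Of 12 measured genes for proteins associated with the proteasome, 7 were higher and 3 lower in LPS against Con, 3 higher and 6 lower in UVABs against LPS, and 3 higher and 5 lower in STSABs against LPS. In LPS this is the share called over all genes, and library totals alone gave 1 higher and 9 lower. Pomp, which completes the core and is known to favour the immunoproteasome, rose by 1.10 ± 0.067 (adjusted p = 7.09e-13) in LPS. Usp14, a deubiquitinase of the regulatory particle, fell by 0.43 ± 0.060 (adjusted p = 2.72e-06) in UVABs and 0.42 ± 0.060 (adjusted p = 3.69e-06) in STSABs against LPS. Of 6 genes for ubiquitin and its activation, 5 were higher in LPS than in Con, and 3 were higher and 3 lower with library totals alone. Uba1, the activating enzyme, rose by 1.41 ± 0.053 (adjusted p = 1.07e-16). Of 5 shuttle factors, which carry ubiquitinated proteins to the proteasome, 1 was higher and 3 were lower in LPS against Con, and all 5 were lower with library totals alone. Ubqln2 changed by -0.42 ± 0.061 (adjusted p = 1.56e-06) in LPS against Con, -0.29 ± 0.058 (adjusted p = 0.000212) in UVABs against LPS and -0.36 ± 0.058 (adjusted p = 2.05e-05) in STSABs against LPS.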

How the data were processed

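Per the labels' protocols, poly(A) RNA was made into libraries with dUTP in the second strand and read from both ends. HISAT2 and the build mm39 are named in the submitters' processing notes. Neither the counter, its strand setting nor the annotation is given in the sources used here, so reads of genes that overlap, antisense ones included, may be mixed. The authors deposited estimated counts per gene symbol without normalization, of which 6.35% were not whole. They were rounded, filtered with filterByExpr by group (12465 of 16909 symbols, with 99.97% of counts) and scaled by TMM. The quasi-likelihood test of edgeR 4.0.16 (under R 4.3.3) used the 18 libraries in a single model of the 4 group means, and p-values were adjusted by Benjamini-Hochberg over all genes at 0.05 for each of 6 contrasts. The SE was derived from the log2 fold change and the F statistic and is approximate. Totals of 17588357 to 18675283 counts set the precision. The fit was tested on simulated data. DESeq2 1.42.0, other scalings, filters and sets of libraries were tried.

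Members and gene lists were chosen with earlier results of these data known. Values per library are given for the inducible genes, their counterparts, Psme3, Psme4, Psmf1 and Psmd4. In each main comparison up to 3 called changes in each direction are named for the core, the regulatory particle and the chaperones, among genes that reach 5 CPM in a group mean, and up to 3 genes of each list, of which some are not reported here. Psma6, Psma5, Psmd11, Psmd7, Psmd8, Psmg1 and Psmg2 come with all libraries as the largest of these, and neighbours of members were looked up in RefSeq (GRCm38.p6). Genes outside this rule (Psma1, Psma8, Psmb11, Psmc3, Psmc6, Psmc3ip, Psme2b, Psme3ip1, Nfkbia, Prorp, Tap1, H2-DMb1, Tap2, Rnf31 and Emc9) were named after their values were seen. Same-numbered libraries of UVABs and STSABs deviated together (all 5 correlations over 0.1, 0.143 to 0.687, the highest in replicate 2). A replicate block was therefore tried. Libraries of different number were not compared, so it is not established that the numbers pair them.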

Additional observations from a re-analysis of the deposited data

Results flagged for a closer look

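A library was flagged where its gap to the nearest other of its group was large for the group's range (Dixon's criterion), which flags about 1 group in 20 by chance. Of 150 gene groups, 9 were flagged, and 12 of 198 groups in all, with ratios and shares. Replicate 2 of UVABs held 5 of the 12. There Psma6 was 463.4 CPM, against 528.9 to 548.5 in the other UVABs libraries, and Psmb5 was 118.2 CPM, against 89.03 to 94.94. In the same library Psmb3 was 93.54 CPM, against 77.78 to 80.3, Psmc5 was 54.61 CPM, against 45.43 to 47.71, and the constitutive beta subunits took 0.08199% of counts, against 0.07483 to 0.07675. In replicate 2 of STSABs, Psma6 was 453.3 CPM, against 542.2 to 549.1.

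Replicate 1 of LPS was the highest of its group for Psma1 (108.6 CPM, against 87.61 to 93.23), for Psmc1 (92.24 CPM, against 83.51 to 85.79) and for Psmd11 (132.8 CPM, against 120.0 to 122.9). Psma7 was 85.36 CPM in replicate 4 of UVABs, against 93.36 to 95.06. The count ratio of Psme2 to Psme3 was 9.198 in replicate 1 of STSABs, against 8.117 to 8.212, and 6.417 in replicate 5 of LPS, against 6.92 to 7.092.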

How the results depend on the processing

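The scaling changed most. With library totals alone, called proteasome genes came to 18 higher and 22 lower in LPS against Con, 16 and 28 in UVABs against Con, and 17 and 28 in STSABs against Con. Upper-quartile scaling gave 7 lower in LPS against Con and 13 lower in each AB group against Con. The stricter filter (5 CPM in 5 libraries) gave 1 lower in LPS against Con. It left genes called lower in the main fit, such as Psma8 and Psmc3ip, untested. Of all calls in LPS against Con, 48.2% were higher with TMM, 36.0% with upper-quartile scaling and 21.2% with library totals. Log2 fold changes of LPS against Con that changed sign with upper-quartile scaling were Psmc1 (-0.025), Psmd13 (-0.065) and Ubqln1 (-0.037), and, of genes not called with TMM, Psma1 (-0.23), Psmc6 (-0.17) and Psmd5 (-0.27), which passed as lower, and Psmd9 (-0.14), which did not pass. With library totals they were Psma7 (-0.20), Psmb1 (-0.30), Psmb3 (-0.43), Psmb5 (-0.13), Psmc1 (-0.49), Psmc2 (-0.27), Psmc3 (-0.45), Psmc4 (-0.064), Psmd2 (-0.14), Psmd3 (-0.34), Psmd4 (-0.44), Psmd6 (-0.047), Psmd8 (-0.21), Psmd12 (-0.10), Psmd13 (-0.53), Psmd14 (-0.15), Psme3 (-0.47), Psme3ip1 (-0.050), Psmg3 (-0.42), Txnl1 (-0.19), Ubqln1 (-0.50) and Zfand5 (-0.11), and, of genes not called with TMM, Psma1 (-0.70), Psmc6 (-0.63), Psmd5 (-0.74) and Psmd9 (-0.60), all 4 past the threshold. The 5 inducible genes kept their call and direction against Con under these scalings and filters. Leaving out 1 library at a time gave 41 to 43 higher and 4 lower in LPS against Con, 3 higher and 24 to 30 lower in UVABs against LPS, 3 to 4 higher and 27 to 31 lower in STSABs against LPS, and 0 in UVABs against STSABs. Against Con it gave 35 to 39 higher and 6 lower in UVABs, and 35 to 38 higher and 6 to 7 lower in STSABs. With the replicate block, 43 were higher and 4 lower in LPS against Con, 3 and 28 in UVABs against LPS, 3 and 31 in STSABs against LPS, and 0 in UVABs against STSABs. Among constitutive beta subunits the block ended the call of Psmb7 in STSABs against LPS (adjusted p = 0.0505), and brought that of Psmb4 there (adjusted p = 0.0382) and of Psmb2 in UVABs (adjusted p = 0.0445) and STSABs (adjusted p = 0.0331) against LPS (edgeR). Same-numbered libraries of the other pairs of groups did not all correlate over 0.1. Low genes such as Psma8, Psmc3ip and the Psmg chaperones rest on few counts.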

Other observations

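Psmc3ip, a recombination factor that shares only part of its symbol with the ATPase Psmc3, had 0.79, 1.20, 1.07, 0.64 and 0.88 CPM in UVABs, 0.87, 1.15, 1.56, 0.88 and 0.76 in STSABs, 0.96, 1.45, 0.67, 0.72 and 0.80 in LPS, against 2.24, 1.84 and 2.49 in Con. Its log2 fold change in LPS against Con was -1.25 ± 0.23 (adjusted p = 3.85e-05). Psme3ip1, which encodes a partner of Psme3, rose by 0.69 ± 0.064 (adjusted p = 1.26e-09) in LPS against Con, while library totals alone gave -0.050.

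Beside Psme2 on the chromosome lies Rnf31, which builds linear ubiquitin chains. Rnf31 averaged 182 CPM in UVABs, 185 CPM in STSABs, 167 CPM in LPS and 26.0 CPM in Con, and rose by 2.68 ± 0.067 (adjusted p = 6.23e-20) in LPS against Con (edgeR). Tap2, the second subunit of the peptide transporter, lies by Psmb8 and rose by 1.19 ± 0.055 (adjusted p = 6.22e-15) in LPS against Con. Emc9 overlaps Psme1 and moved the other way, by -0.73 ± 0.18 (adjusted p = 0.000962) in LPS against Con, and was higher in both AB groups than in LPS, by 1.09 ± 0.17 (adjusted p = 9.97e-06) in UVABs and 1.22 ± 0.17 (adjusted p = 2.07e-06) in STSABs.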
